A study of Mus musculus with 2 samples.

Results

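Mucins are the glycoproteins that make and line the mucus of the stomach and the intestine, and the 10 mucin genes described here are *Muc1*, *Muc2*, *Muc4*, *Muc5ac*, *Muc5b*, *Muc6*, *Muc13*, *Muc16*, *Muc20* and *Mucl3*. They were chosen by name, as secreted and membrane mucins, and a member counted as measured where a probe set of the array carried its symbol alone. This held for 8 of the 10, among 19505 genes measured in all, with 1 probe set each. *Muc6* and *Muc16* were not analysed here.

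Secreted gel-forming mucins (Muc2, Muc5ac, Muc5b and Muc6) are stored in granules, released at the cell apex and swell into the mucus layer. In the stomach, Muc5ac is the mucin of surface mucous cells and Muc6 that of mucous neck and deep gland cells, while Muc2 is the mucin of intestinal goblet cells and Muc5b is best known from the airways and salivary glands. Membrane-bound mucins stay anchored at the apical surface, where their long sugar-coated domain shields the cell and their short tail can signal. Muc1 is the membrane mucin best known from gastric epithelium, and Muc13 is a membrane mucin of the gut.

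Total RNA came from gastric organoids, which are cultures of stomach epithelium grown in Matrigel, established from aged mice (more than 18 months of age) and from young mice (2 to 4 months of age). The mice were C57BL/6, and both cultures received a medium with Wnt3a, R-Spondin1 and Chir99021, which drive Wnt signaling, with Noggin, SB431542 and EGF, and with valproic acid, an inhibitor of histone deacetylases. There was 1 Clariom S array per group, so no test was possible, no error can be attached to a difference, and age cannot be told apart from any other difference between these cultures. How many mice or passages stood behind each array is not given in the sources used here.

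Signals are on the deposited log scale, taken as log2, and differences are aged minus young. To read signals against background, the 95th percentile of 1410 receptor genes of smell and pheromone sensing (the olfactory and vomeronasal families, foreign to the stomach) served as reference. This lay at 5.54 on the aged array and at 5.36 on the young array. The differences of these receptor genes had an SD of 0.51, which shows the scatter at the dim end of the scale. Signals ran up to 19.9 on both arrays, higher than plain RMA usually gives, and whether the scale was stretched by a further step is not stated, so folds below hold on the deposited scale only. The organoids carried the RNA of an epithelium. Of 15 measured markers, general and gastric, 14 were above the reference on at least 1 array, where 59.3% of all genes were. Among them, *Cldn18*, the claudin of stomach tight junctions, was at 17.20 on the aged array and 18.01 on the young array. The exception among the 15 was the mucin *Muc5ac* itself. Of the other gastric markers, *Gkn2* was barely above the reference, at 5.65 on the aged array and 5.85 on the young array. *Tff2* was under it on the young array, at 4.43.

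The membrane mucin *Muc1* set the arrays apart more than any other mucin, and the gel-forming mucins gave no signal above background on either array. *Muc1* was bright in young organoids and at background in aged organoids. *Mucl3* was lower in aged organoids as well, and *Muc13* was higher. Of the 8 measured mucins, 1 was higher by 2-fold or more in aged organoids and 2 were lower by as much, where a gene had to pass the reference on at least 1 array to count. By the same rule 6.72% of all 19505 genes were higher, 7.02% lower and 13.7% apart either way, so the counts alone of so few genes say little. Counts of the groups below are to be read beside these shares too. Of the 11557 genes above the reference on at least 1 array, 2680 were apart either way. The median difference of the 8 mucins was −0.46, against 0.04 over all genes. This value includes 4 mucins under the reference on both arrays and is smaller than the SD of the receptor genes (0.51), so it says little. Over the 4 mucins above the reference on at least 1 array, the median was −0.91. The mucins above the reference on at least 1 array were 4 of 8, where 59.3% of all genes were.

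**Figure D1:**
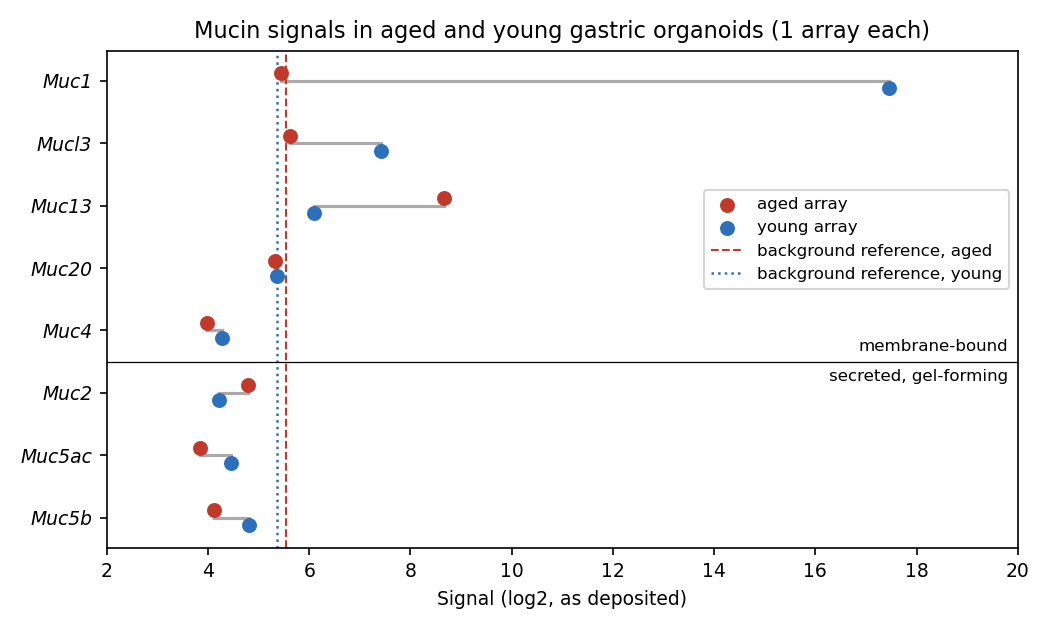
Signal of the 8 measured mucin genes (log2, as deposited) on the aged array (red, upper point of each row) and the young array (blue, lower point), 1 array per group. Dashed and dotted vertical lines mark the background references of the aged array (5.54) and the young array (5.36), and grey bars join the points of a gene. *Muc1* spans 5.45 to 17.46, while *Muc2*, *Muc5ac* and *Muc5b* lie left of both references.

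All 3 measured gel-forming mucins were under the reference on both arrays, so no fold is given for them. *Muc5ac*, the gastric surface mucin, had 3.84 on the aged array and 4.45 on the young array. *Muc5b* had 4.12 on the aged array and 4.82 on the young array, and *Muc2* had 4.79 on the aged array and 4.22 on the young array. These values sit among those of the receptor genes. Of the receptor genes, 37.0% were dimmer than *Muc5ac* on the aged array and 72.6% on the young array. For *Muc5b* these shares were 52.6% on the aged array and 83.8% on the young array, and for *Muc2* they were 80.2% on the aged array and 62.2% on the young array. The differences of the 3 genes, from −0.69 to 0.57, were little larger than the SD of the receptor genes. RNA of these mucins was thus not detectable above background in either culture by these probe sets, which does not show that it was absent.

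*Muc1* encodes a transmembrane mucin with a heavily O-glycosylated tandem repeat domain and a cytoplasmic tail that binds signaling proteins. Its signal was 5.45 on the aged array and 17.46 on the young array. The aged value was 0.09 under the reference, where 93.8% of the receptor genes were dimmer on that array, and the young value was 12.09 above the reference. The measured difference was −12.01, the lowest of all 19505 genes, and it was also the lowest with dim signals raised to the reference (−11.92, against −10.34 for *Pgc*, the next). Because the aged value is at background, only a bound can be given, and the aged signal of *Muc1* was lower by at least 3866-fold, or at least 1997-fold with the reference at the 99th percentile of the receptor genes. Among all genes, 4.29% were above the reference on the young array and not on the aged array. Genes as bright as *Muc1* were rarely in that class: of 160 genes at 16 or more on the young array, *Muc1* was the only one under the reference on the aged array, and the next dimmest there, *Mdm2*, was at 12.98 on the aged array and 16.23 on the young array. This brightness class was chosen after the values were seen, and genes with the same pattern lie just below its cut. *Pgc* (15.88 on the young array), *Apob* (15.41) and *Clca3a1* (15.35) were also under the reference on the aged array, at 5.19, 4.80 and 4.98. The *Muc1* value rests on 1 probe set and 1 array per group, with no second probe set to compare.

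The promoter of *Muc1* is shown because it stands in front of the mucin whose signal differed most. RefSeq (GRCm38.p6) places the window from 250 bases before to 50 bases after the start of the gene at chr3:89228806-89229105, plus strand. The letters of 8 motifs were searched on both strands, and matches are in capitals: the GATA factor motif AGATAA, the CDX motif TTTATG, the FOXA motif TGTTTAC, the HNF4 motif CAAAGTCCA, the STAT motif TTCNNNGAA, the Sp1 motif GGGCGG, the TATA box motif TATAAA and the ELF3 motif CAGGAAGT. No matches overlapped each other in the windows shown.
Muc1 promoter: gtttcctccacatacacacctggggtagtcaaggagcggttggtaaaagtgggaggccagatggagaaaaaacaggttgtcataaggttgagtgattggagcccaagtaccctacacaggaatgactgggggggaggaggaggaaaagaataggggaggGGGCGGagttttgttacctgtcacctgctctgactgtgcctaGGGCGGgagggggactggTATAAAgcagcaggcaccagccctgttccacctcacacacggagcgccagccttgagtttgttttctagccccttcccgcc
GGGCGG began at −91 and at −49 relative to the start, and TATAAA at −31. Of all 32851 promoter windows of this length, 35.7% hold GGGCGG and 13.6% hold TATAAA on either strand. The window was 55.7% G or C, against a median of 52.7% over all windows. A match describes the letters and not a bound factor.

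*Mucl3*, also known as *Dpcr1*, encodes a mucin-like membrane protein found in gastric surface mucous cells. It had 5.63 on the aged array and 7.41 on the young array. The aged value was 0.09 above the reference and the young value 2.05 above it. The difference of −1.78 corresponds to a 3.43-fold lower signal in the aged array, which rests on an aged value barely over background. With the reference at the 99th percentile of the receptor genes (6.49 on the aged array), the aged value is under it and the signal was lower by at least 1.89-fold. On the measured scale, 94.9% of the genes above the 95th percentile reference on at least 1 array had a higher difference. *Mucl3* was thus clearly above background in young organoids only. No match to any of the 8 motifs was found in its promoter window.

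*Muc13* encodes a membrane mucin with epidermal growth factor-like domains that is made along the gut. It ran the other way, at 8.65 on the aged array and 6.09 on the young array. The aged value was 3.12 above the reference and the young value 0.72 above it. The difference was 2.57, or 5.93-fold higher in the aged array, and 212 of the 19505 genes had a larger one. With the reference at the 99th percentile of the receptor genes (6.10 on the young array), the young value is under it and the signal was higher by at least 5.86-fold. *Muc13* was the only measured mucin well above background on the aged array.

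The promoters of *Muc13* are shown because it is the mucin with the higher signal in aged organoids. RefSeq (GRCm38.p6) gives 2 starts, both on the plus strand, with windows at chr16:33793787-33794086 and chr16:33794239-33794538, and capitals again mark matches to the same motifs.
Muc13 promoter, start 1: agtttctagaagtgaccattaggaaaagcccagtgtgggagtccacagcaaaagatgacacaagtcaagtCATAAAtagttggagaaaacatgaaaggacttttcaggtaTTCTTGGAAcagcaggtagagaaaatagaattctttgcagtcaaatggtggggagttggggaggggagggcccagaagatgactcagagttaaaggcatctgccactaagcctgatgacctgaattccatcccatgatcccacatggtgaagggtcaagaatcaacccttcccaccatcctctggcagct
Muc13 promoter, start 2: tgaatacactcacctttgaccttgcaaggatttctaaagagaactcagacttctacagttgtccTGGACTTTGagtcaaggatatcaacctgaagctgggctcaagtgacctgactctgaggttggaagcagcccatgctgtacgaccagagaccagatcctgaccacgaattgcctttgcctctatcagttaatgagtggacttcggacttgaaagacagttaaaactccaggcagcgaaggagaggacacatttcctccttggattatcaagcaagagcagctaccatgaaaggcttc
In the first window, the CDX letters read on the other strand (CATAAA) began at −180, and a STAT match began at −140. In the second window, the HNF4 letters on the other strand began at −186. Of all promoter windows, 11.9% hold the CDX letters, 8.3% the STAT letters and 0.475% the HNF4 letters. The windows were 46.3% and 47% G or C. Among the genes of factors that read such letters, *Cdx2* and *Hnf4g* differed between the arrays and are given below. *Cdx1* (0.54), *Hnf4a* (−0.63) and *Stat3* (−0.73) were less than 2-fold apart. No link between these windows and the signals was tested.

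*Muc20* and *Muc4*, which lie beside each other on chromosome 16, stayed at or under background. *Muc20*, a membrane mucin best known from kidney, had 5.33 on the aged array and 5.37 on the young array, 0.21 under the reference on the aged array and 0.0058 above it on the young array. It passed the reference through this margin alone, and 6.81% of the receptor genes also passed it on at least 1 array. *Muc4*, a large membrane mucin that can bind the receptor Erbb2, had 3.97 on the aged array and 4.27 on the young array. No fold is given for either gene.

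**Figure D2:**
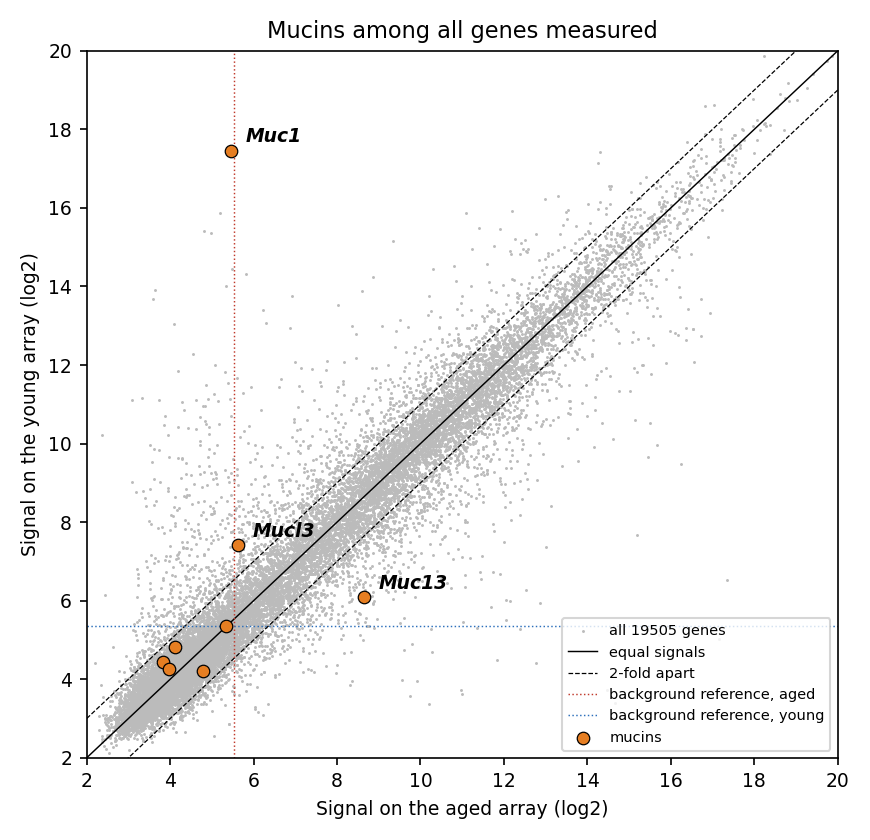
Signals of all 19505 genes on the aged array (horizontal axis, log2) and the young array (vertical axis, log2), with the 8 mucins in orange. The solid line marks equal signals, dashed lines a 2-fold difference, and dotted lines the background references. *Muc1* is the only mucin at the upper left, *Muc13* lies below the lines and *Mucl3* above them, and the other 5 mucins lie in the cloud at background.

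The genes beside *Muc1* on its chromosome had much smaller differences. The nearest measured neighbors of *Muc1* on chromosome 3, in RefSeq order, are *Mtx1* and *Thbs3* on one side and *Trim46* and *Krtcap2* on the other. *Krtcap2*, a subunit of the oligosaccharyltransferase, was at 15.81 on the aged array and 16.05 on the young array, and the mitochondrial import gene *Mtx1* was at 9.18 on the aged array and 8.89 on the young array. *Thbs3* was under the reference on both arrays, and *Trim46* was at 4.06 on the aged array and 5.42 on the young array, barely over the young reference. On the aged array, the genes directly beside *Muc1* (*Thbs3* and *Trim46*) were thus under the reference. *Mtx1* and *Krtcap2*, 2 places away, were above it. Among the 20 measured genes within 10 places of *Muc1* on either side, a span chosen after the values were seen, 16 were above the reference on at least 1 array, and their differences ran from −1.69 to 1.01 with a median of −0.17. Chromosome 3 as a whole had a median difference of 0.01 over 569 genes above the reference.

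Around *Mucl3* on chromosome 17, the mucin gene *Gm9573* (a RefSeq synonym is *Muc21*) on one side was under the reference on both arrays, at 4.84 on the aged array and 4.19 on the young array. *Sfta2*, which encodes a secreted surfactant-associated protein, lay on the other side and differed by 1.38, opposite in sign to *Mucl3*. Around *Muc13*, the integrin gene *Itgb5* differed by 0.89 and *Heg1* by 0.21, while *Slc12a8*, a transporter gene of the cation-chloride cotransporter family, differed by −4.17, also opposite in sign. The gel-forming mucins *Muc2*, *Muc5ac* and *Muc5b* form a run of measured genes on chromosome 7. *Muc6*, also on chromosome 7, was not measured and is left out of this order. Their neighbors were expressed, with *Ap2a2*, a subunit of the clathrin adaptor, at 10.26 on the aged array and 8.72 on the young array, and *Tollip*, an adaptor of innate immune signaling, at 9.83 on the aged array and 9.55 on the young array. *Chid1* beyond *Ap2a2* differed by −1.52, and *Mob2* beyond *Tollip* by 0.03. The run of mucin genes at background was thus set between genes with clear signals. Next to *Muc4* and *Muc20*, the transferrin receptor gene *Tfrc* (−0.16) and *Rubcn* (−0.13) were above the reference with small differences, and *Tnk2* and *Smbd1* were under it on both arrays.

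**Figure D3:**
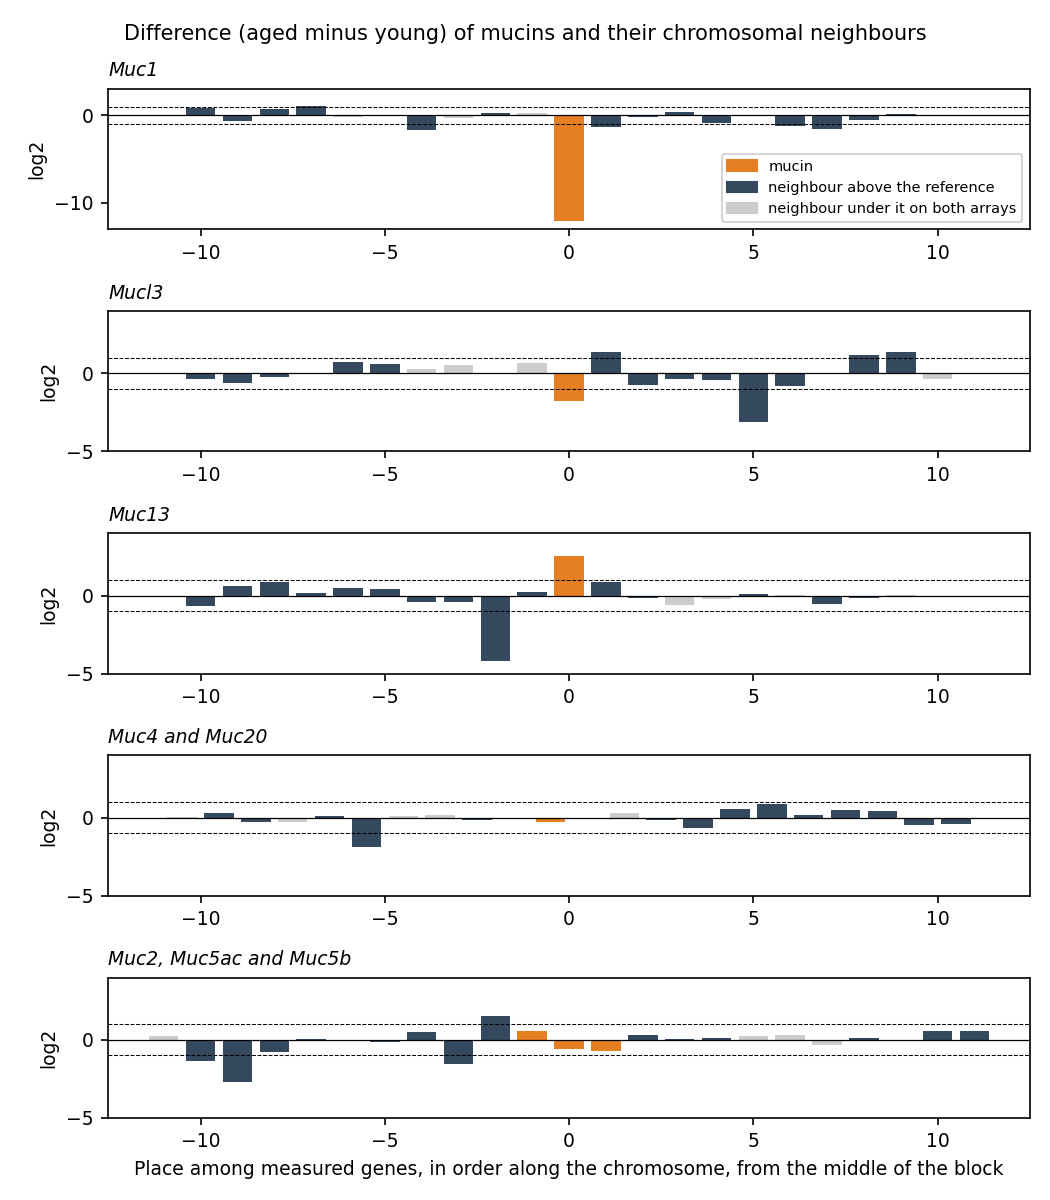
Difference (aged minus young, log2) of each mucin or run of mucins (orange) and of 10 measured genes on either side, in order along the chromosome. Dark bars are neighbors above the background reference on at least 1 array, grey bars those under it on both, and dashed lines mark a 2-fold difference (the scale of the *Muc1* panel is wider than that of the others). The bar of *Muc1* reaches −12.01, and no neighbor within 10 places of it reaches −2.

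Genes for other mucins and mucin-like surface proteins were mostly at background or less than 2-fold apart. Of 18 listed, 14 were measured and 6 were above the reference on at least 1 array, of which *Podxl* was higher and *Mcam* lower by 2-fold or more in the aged organoids and 4 were closer. Over the 14, the median was 0.23. *Podxl*, the anti-adhesive sialomucin podocalyxin, was at 10.67 on the aged array and 8.70 on the young array. *Mcam*, an adhesion molecule also called Muc18, was at 4.62 on the aged array and 10.37 on the young array, at least 28.5-fold lower. *Muc15*, *Emcn* and *Mucl2* were under the reference on both arrays.

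Genes of proteins secreted together with mucins differed in both directions. Of 15 listed genes, 12 were above the reference on at least 1 array. Of these, 5 were higher and 5 lower in aged organoids by 2-fold or more. The median difference was 0.46 over all 15 and −0.50 over the 12 above the reference. Counts rest on the measured difference, so the bound given for a gene may be smaller. Higher were the trefoil factor *Tff2*, which accompanies Muc6 in the gastric gland (at least 169-fold), the goblet cell trefoil factor *Tff3* (at least 1565-fold), *Fcgbp*, which encodes a protein bound to Muc2 in intestinal mucus (5.22), and *Clca1*, a goblet cell protease that acts on Muc2 (at least 3.56-fold). So the RNA signals of 3 genes whose proteins are known as companions of Muc2 were higher on the aged array. *Muc2* itself was at 4.79 there, under the reference. *Zg16* and *Retnlb* of the same group, also goblet cell markers, were under the reference on both arrays. Lower were *Gkn3*, a gastrokine of the gland (at least 64.1-fold), *Dmbt1*, a mucin-like scavenger protein (at least 29.7-fold), *Pigr*, the transporter of immunoglobulin A into mucus (−4.77), and the antibacterial protein gene *Lypd8* (at least 13.3-fold).

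Genes for the folding of mucins, for their granules and for the ion transport that lets mucus swell were split. Of 29 measured, 25 were above the reference on at least 1 array, 7 of them higher by 2-fold or more, 6 lower and 12 in between, and the median was −0.06. *Agr2*, a disulfide isomerase needed to fold Muc2, was at 9.14 on the aged array and 7.32 on the young array. The granule trafficking gene *Rab27b* was higher by 1.61 and *Rab27a* lower, by −2.83. *Bcas1* (1.27) and the calpain gene *Capn8* of surface mucous cells (at least 2.20-fold) were higher. Lower were the secretory transcription factor gene *Creb3l1* (−3.41), the gastric anion channel gene *Slc26a9* (−2.56) and the sodium-proton exchanger gene *Slc9a3* (at least 26.0-fold). The members higher and lower were thus mixed among folding, trafficking and ion transport.

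Genes of mucin O-glycosylation lay on both sides of 0, most of them less than 2-fold apart or at background. All 37 were measured and 27 were above the reference on at least 1 array, 6 of them higher by 2-fold or more, 5 lower and 16 in between, and the median was 0.01. By the same rule 6.72% of all genes were higher and 7.02% lower. Of the 9 *Galnt* genes, whose enzymes attach the first sugar, 8 were above the reference on at least 1 array. Of these, *Galnt6* was lower and the other 7 were less than 2-fold apart, with differences from −0.97 (*Galnt12*) to 0.84 (*Galnt4*). *C1galt1*, whose enzyme extends the first sugar to core 1, differed by 0.11. The 6 genes higher in the aged array were the sialyltransferase gene *St3gal4* (3.33), *B4galnt2*, which makes the Sda antigen (2.75), the fucosyltransferase genes *Fut2* (1.53) and *Fut1* (1.49), *B4galnt3* (1.49) and *Gcnt1*, a core 2 branching enzyme gene (1.44). Lower were the sialyltransferase gene *St6galnac2* (at least 7.41-fold), *Galnt6* (at least 2.10-fold), *Gcnt4* (at least 1.06-fold) and the UDP-galactose transporter gene *Slc35a2* (−1.43).

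Among 25 measured genes of transcription factors known to act on mucin genes, 22 were above the reference on at least 1 array. Of these, 6 were higher by 2-fold or more and 5 lower, and the median over the 25 was −0.24. Of the 5 lower, *Nkx6-2* was barely over the young reference, at 4.27 on the aged array and 5.39 on the young array. Its young signal was under the aged reference, so no bound holds for it. *Cdx2*, which drives Muc2 and intestinal identity, was at 11.70 on the aged array and 5.83 on the young array. *Hnf4g*, a gut nuclear receptor gene, differed by 2.87, *Foxa1* by 1.84 and the epithelial factor gene *Ehf* by 1.36. Lower were *Foxa2* (−1.95), *Gata6* (−1.88), *Gata4* (−1.65) and *Foxa3* (at least 2.19-fold). *Spdef* and *Atoh1*, which are required for goblet cells, were under the reference on both arrays, as was *Gfi1*.

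Genes of proteins that bind membrane mucins or act with them held 2 galectin genes with large differences of opposite sign, *Lgals4* and *Lgals1*. Of 18 measured, 17 were above the reference on at least 1 array, 2 of them higher by 2-fold or more, 5 lower and 10 in between, and the median was −0.30. The galectin gene *Lgals3*, whose product binds the sugars of Muc1, was at 13.53 on the aged array and 10.77 on the young array, and *Lgals4* was at 16.24 on the aged array and 9.48 on the young array. *Lgals1* was lower by at least 46.4-fold, and the protease gene *Mmp14*, whose product can shed Muc1, by at least 2.31-fold. *Msln*, the gene of mesothelin, a ligand of Muc16, differed by −2.22, and *Egfr*, whose product binds Muc1, by −1.56. The receptor gene *Erbb2*, a partner of Muc4, differed by 0.82.

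**Figure D4:**
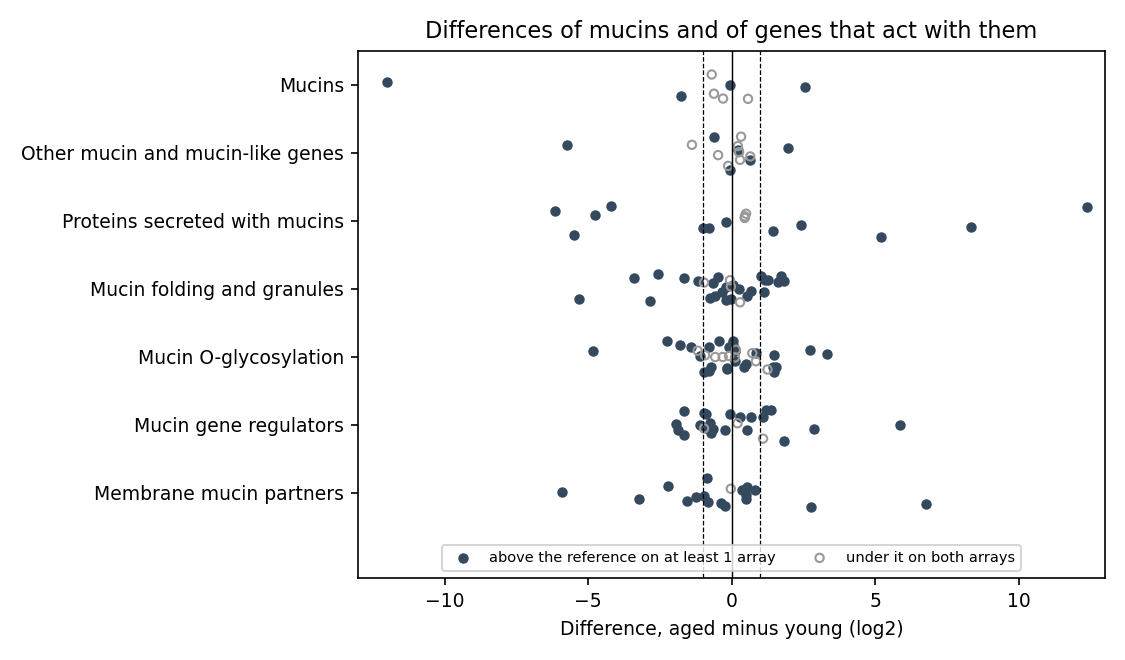
Difference (aged minus young, log2) of the 8 mucins and of the genes of 6 groups that act with them, each gene as a point (vertical scatter within a row carries no value). Filled points were above the background reference on at least 1 array, open points were under it on both, and dashed lines mark a 2-fold difference. *Muc1* at −12.01 is the leftmost point, and *Tff3*, under the reference on the young array, is drawn at its measured 12.38, for which only a bound holds.

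Markers of the cells that make each mucin differed between the arrays, and in bulk RNA fewer cells of a type and less RNA per cell cannot be told apart. Surface mucous cell markers, to which *Muc5ac* and *Mucl3* belong, were above the reference in 11 of 14 on at least 1 array, 5 of them higher by 2-fold or more and 4 lower. Their summed signal was 16.65 on the aged array and 16.67 on the young array (log2 of the summed linear signals). Without *Ctse*, the brightest of these on the young array but not on the aged array, it was 16.30 on the aged array and 15.81 on the young array. The median difference of these markers was 0.05 over the 14 and −0.20 over the 11 above the reference. Of these, *Anxa10* differed by −8.50 and *Tff1* was at least 1.23-fold lower, while *Vsig1* was higher by 1.94. Mucous neck and deep gland markers, the cells of Muc6, were above the reference in 10 of 11, 4 of them higher by 2-fold or more and 5 lower, and summed to 15.83 on the aged array and 17.30 on the young array, with a median difference of −0.92 over the 11. Without *Glipr1* the sum of these markers was 15.51 on the aged array and 16.61 on the young array. The largest difference among them was that of *Pgc* (pepsinogen C), at least 1296-fold lower. The next largest, that of *Tff2*, ran the other way, at least 169-fold higher. Goblet cell markers, the cells of Muc2, were above the reference in 6 of 12, 5 of them at least 2-fold higher, with a median difference of 0.83 over the 12. They summed to 16.09 on the aged array and 9.52 on the young array, a sum made mostly of *Tff3*, without which it was 12.38 on the aged array and 9.50 on the young array. The defining *Muc2*, *Spdef*, *Atoh1*, *Zg16* and *Retnlb* were under the reference on both arrays. Enterocyte markers were above it in 8 of 15, with 6 at least 2-fold higher (*Cdh17* by 7.52) and sums of 17.09 on the aged array and 14.52 on the young array. Their median difference was 0.54 over the 15, and without *Lgals4* they summed to 15.91 on the aged array and 14.47 on the young array. *Fabp1*, *Fabp2*, *Alpi* and *Sis* were under it on both. The part of any of these cells in the *Muc1*, *Mucl3* and *Muc13* values was not tested.

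Markers of cells other than epithelium were mostly at background. Of 14 leukocyte markers 1 was above the reference on at least 1 array, of 13 fibroblast and muscle markers 2 and of 10 endothelial markers 1. Summed signals were 8.84 on the aged array and 9.997 on the young array for leukocytes (*Cd14* alone passed, and *Ptprc* was under the reference), 8.29 on the aged array and 8.08 on the young array for fibroblasts and muscle, and 7.91 on the aged array and 7.97 on the young array for endothelium. Markers of the squamous forestomach were above it in 3 of 14, among them *Krt4* (higher by at least 3567-fold) and *Sprr1a* (−2.20), while *Krt5*, *Krt14* and *Trp63* were under it on both arrays.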

How the data were processed

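RNA of gastric organoids was hybridized to Clariom S mouse arrays, 1 for aged and 1 for young mice. The authors deposited 1 log2 signal per probe set and array. The submitters' processing notes name RMA and Affymetrix Power Tools. Versions and the base of the logarithm are not given in the sources used here, and base 2 was taken.

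Of 22206 probe sets, 19572 carried 1 gene symbol, none carried several, and the remaining 2634, with no symbol, were not used. RefSeq gene identifiers gave current symbols, and signals were averaged for 55 genes with several probe sets. Chromosomal order came from RefSeq (GRCm38.p6), since no build is named for the arrays. Calls required a 2-fold difference and a signal over the background reference (95th percentile of receptor genes) on at least 1 array. Where the dimmer array was under the reference, folds are bounds against it. With 1 array per group no test was run, and the number of arrays limits the precision.

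All measured mucins are named, and of each other group up to 4 genes in each direction with the largest differences, besides neighbors and a few genes given as examples after their values were seen. The mucins, the groups and the motifs were chosen with earlier results of these data known. Alternatives concerned scaling, the reference, probe sets and the fold threshold. Marker sums without the gene of the highest signal on either array were added after the values were seen. For surface mucous and for mucous neck and deep gland markers, that gene was the brightest on the young array and not on the aged array. Steps were tested on simulated data, with differences planted only in genes well above background. The finding of differences near background, where most mucins lie, was thus not tested. Python 3.11.15, numpy 2.4.6, pandas 2.3.3 and matplotlib 3.10.9 were used.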

Additional observations from a re-analysis of the deposited data

How the results depend on the processing

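The scalings tried were quantile normalization and centering on the median of genes above the reference, a shift of 0.0021. Under both, *Muc1* differed by −12.01, *Muc13* by 2.57 and *Mucl3* by −1.78 to −1.75, and no mucin changed sign. The deposited arrays were already alike in scale, with medians of 5.92 (aged) and 5.96 (young) and the same maximum. Neither scaling could thus move a mucin much, and their agreement is a weak check. References at the 90th and 99th percentiles and the brightest probe set per gene were also tried. These could not change the difference of a mucin, because the reference does not enter it and each measured mucin has 1 probe set. For mucins they can only change which genes pass the reference. Of the comparisons of a group value with its alternative, 47 stayed close and 7 moved. The 47 include medians of all gel-forming and of all membrane-bound mucins, which the references and the choice of probe set could not change either. At a 4-fold threshold 1 mucin was lower instead of 2, 2 O-glycosylation genes were higher instead of 6 and 2 lower instead of 5, and 0 folding and granule genes were higher instead of 7. At a 1.5-fold threshold 9 O-glycosylation genes were lower. Over all genes, 380 were higher and 496 lower at 4-fold, and 2590 higher and 2456 lower at 1.5-fold, against 1311 and 1369. The median of the mucins above the reference, −0.91, was −1.78 with the 99th percentile and with the brightest probe set, because *Muc20* then lies under the reference on both arrays. Counting mucins at their bound, an alternative added after the data were seen, gave −0.89. Adding probe sets with several symbols was not run, since there were none. No paired analysis was possible because each group has 1 array. Signals near background limit *Muc2*, *Muc4*, *Muc5ac*, *Muc5b* and *Muc20*.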

Other observations

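The genes whose pair of signals lay nearest to that of a mucin, over these 2 arrays alone, were *Pgc* and *Apob* for *Muc1*, *Stard3nl* and *Rin3* for *Muc13*, and *Pcyt1b* and *Map3k13* for *Mucl3*. *Pgc*, the chief and neck cell gene of pepsinogen C, had 5.19 on the aged array and 15.88 on the young array, at a distance of 1.60 from *Muc1* in the plane of the signals. *Apob*, the apolipoprotein of chylomicrons, had 4.80 on the aged array and 15.41 on the young array, at a distance of 2.15. The neighbors of *Muc13* and *Mucl3* lay much closer, at 0.18 and 0.20 for *Muc13* and at 0.02 and 0.04 for *Mucl3*.

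Both *Pgc* and *Apob* were under the reference on the aged array, as *Muc1* was, so their distances from *Muc1* depend in part on signals at background.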
